A study of Mus musculus with 10 samples.

Results

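The NKG2D axis and the natural killer (NK) cell receptors were followed in skin at week 12 through 8 genes chosen by name: H60c, Klrk1, Hcst, Tyrobp, Klrd1, Klrc1, Klrg1 and Ncr1. Earlier results of these data were known when the genes were chosen. All probe sets that the platform annotation assigned to exactly 1 of these symbols were taken, with no use of their values, which gave 9 probe sets for 8 of the 18193 genes named on the array. Klrc1 was read by 2 probe sets and each of the other genes by 1. The samples were skin of C3H/HeJ mice that had received skin grafts from alopecic C3H/HeJ mice, a procedure that transfers alopecia areata (AA) to the recipient. From the time of grafting 5 mice received baricitinib, which inhibits the kinases JAK1 and JAK2, and 5 received vehicle control, both systemically by osmotic pump. The strain, the graft and the pump were shared by both groups, so a comparison between them is of drug against vehicle in grafted animals, with no ungrafted or untreated skin beside it. One array was made per skin sample, and the labels do not say whether the biopsies lay within the graft. Values are log2 expression values made with RMA, so that 1 unit is a doubling. RMA corrects the background, gives the probe intensities of all arrays the same distribution and then summarises the probes of each probe set.

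NKG2D, encoded by Klrk1, is an activating receptor of NK cells, CD8 T cells and some gamma delta T cells. It binds stress-induced relatives of MHC class I, among which H60c is the member of the H60 family known from keratinocytes. NKG2D has no signalling motif of its own and works through the membrane adaptors DAP10, encoded by Hcst, and DAP12, encoded by Tyrobp, which many myeloid receptors also use. CD94, encoded by Klrd1, pairs with NKG2A, encoded by Klrc1, to form an inhibitory receptor for the nonclassical MHC molecule Qa-1. KLRG1 is an inhibitory receptor that binds cadherins, and NKp46, encoded by Ncr1, is an activating receptor that marks NK cells and related innate lymphoid cells. CD8 T cells with NKG2D are the effector cells the study followed in AA skin, which is why these transcripts are of interest under JAK inhibition.

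In the annotation table Klrd1 and Klrk1 were neighbours on chromosome 6, with Klrc3, Klrc2 and Klrc1 next in order, and Tyrobp and Hcst were neighbours on chromosome 7. The start regions of the ligand, the receptor, its adaptor DAP10, the NKG2A subunit and NKp46 are printed, since they precede transcripts whose values follow, and these were the 5 genes of the 8 with an entry in the sequence table. Each runs 5′ to 3′ from 250 bases before to 50 bases after a RefSeq transcript start (GRCm38.p6), and capitals mark a match to a searched motif. The motifs were the STAT element TTCNNNGAA, the interferon response core GAAANNGAA, the T-box core TCACACC, the ETS core CCGGAAG and the RUNX core TGTGGT, each searched on both strands.
H60c, chr10:3267722-3268021, minus strand: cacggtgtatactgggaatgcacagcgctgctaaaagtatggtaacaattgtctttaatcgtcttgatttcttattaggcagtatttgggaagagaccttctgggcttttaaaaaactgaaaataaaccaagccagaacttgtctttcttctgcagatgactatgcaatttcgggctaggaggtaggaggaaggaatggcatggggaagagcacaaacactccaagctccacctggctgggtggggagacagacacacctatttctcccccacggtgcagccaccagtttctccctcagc
Klrk1, chr6:129623815-129624114, minus strand: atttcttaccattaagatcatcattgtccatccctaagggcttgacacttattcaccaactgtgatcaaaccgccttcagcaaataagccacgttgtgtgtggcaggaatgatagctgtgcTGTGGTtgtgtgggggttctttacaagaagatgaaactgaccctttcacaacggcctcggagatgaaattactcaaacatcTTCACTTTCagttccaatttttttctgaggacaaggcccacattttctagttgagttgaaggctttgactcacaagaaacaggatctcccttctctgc
Hcst, chr7:30419805-30420104, minus strand: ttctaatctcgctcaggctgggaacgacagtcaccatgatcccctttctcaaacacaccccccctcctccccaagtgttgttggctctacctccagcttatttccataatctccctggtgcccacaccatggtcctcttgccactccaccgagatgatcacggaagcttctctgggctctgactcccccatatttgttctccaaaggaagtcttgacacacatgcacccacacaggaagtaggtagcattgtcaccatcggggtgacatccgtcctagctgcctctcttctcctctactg
Klrc1, chr6:129678924-129679223, minus strand: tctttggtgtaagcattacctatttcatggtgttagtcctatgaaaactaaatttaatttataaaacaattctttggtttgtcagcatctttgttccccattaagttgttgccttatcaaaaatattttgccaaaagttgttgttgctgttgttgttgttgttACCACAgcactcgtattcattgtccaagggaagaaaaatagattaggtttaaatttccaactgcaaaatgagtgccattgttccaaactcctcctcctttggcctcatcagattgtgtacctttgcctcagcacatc
Ncr1, chr7:4337465-4337764, plus strand: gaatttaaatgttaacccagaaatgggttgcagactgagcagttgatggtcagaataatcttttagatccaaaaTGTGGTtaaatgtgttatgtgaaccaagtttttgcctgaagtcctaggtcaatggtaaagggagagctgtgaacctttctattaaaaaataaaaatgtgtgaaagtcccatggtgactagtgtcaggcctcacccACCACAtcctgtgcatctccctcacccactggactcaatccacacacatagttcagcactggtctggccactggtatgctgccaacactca
Klrk1 held 1 interferon response core, on the opposite strand with its leftmost base at position -48 where the start is 0, and 1 RUNX core at -129. Klrc1 held 1 RUNX core on the opposite strand at -87, and H60c and Hcst held 0 matches. Ncr1 held 2 RUNX cores, at -176 and, on the opposite strand, at -41, and a neighbouring Ncr1 start (chr7:4337474-4337773, not printed) held 2 as well. No 2 matches overlapped. Among 32851 start regions of the same length, 8.3% held the STAT element, 8.56% the interferon response core, 3.98% the T-box core, 8.86% the ETS core and 16.8% the RUNX core. A match is a description of these letters and was not tied to any value.

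Among 9 of the 10 arrays any 2 correlated with r between 0.946 and 0.994 across probe sets, whereas the r of vehicle replicate 5 was 0.697 to 0.729. Its values were also less spread out, with an SD of 2.28 log2 where the other arrays had 2.71 to 2.79. The study's methods removed 1 vehicle array at quality control without naming it, so values are given with all 10 arrays and without vehicle replicate 5. RNA quality was read as the 3'/5' gap. For Gapdh and beta-actin this is the value of the 3' probe sets minus that of the 5' probe sets, averaged, and degraded RNA makes it wider. The gap was 0.99 to 1.18 log2 on the baricitinib arrays, 1.01 on vehicle replicate 4, and 2.0, 3.03, 4.35 and 4.06 on vehicle replicates 2, 1, 3 and 5. Because the gap differs between the groups, RNA quality and treatment cannot be fully told apart. The skin label was borne out by the basal keratinocyte keratin Krt5 (13.04 to 13.66 log2) and the collagen gene Col1a1 (11.98 to 12.59) on all 10 arrays. In whole skin, fewer cells of a type and less RNA per cell cannot be told apart.

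With all arrays, 8 of the 9 probe sets had a lower mean with baricitinib than with vehicle, and the exception was Tyrobp. The median difference over the 9 was -0.80 log2, against -0.07 over all probe sets, of which 55.4% had a difference under 0. As the genes were chosen with earlier results of these data known, such contrasts with all probe sets are only descriptive. None of the 9 was past an adjusted p of 0.05 (limma adjusted p 0.224 for H60c to 0.793 for Tyrobp), nor was any of the 45037 tested (0%). At an unadjusted p under 0.05, 3 of the 9 were lower in baricitinib treated skin (H60c, Klrd1 and the brighter Klrc1 probe set), against 5.62% of all probe sets. Without vehicle replicate 5 the median became -1.0, all 9 differences were negative and 4 were lower at that level, Hcst being added, against 13.5% of all probe sets. The adjusted count was again 0 (0%), with limma adjusted p of 0.0733 to 0.517 over the 9. The 2 groups overlapped at each of the 9 probe sets with all arrays, where 2.03% of all probe sets had every baricitinib array below every vehicle array. Without vehicle replicate 5, H60c and the brighter Klrc1 probe set did not overlap, against 4.11% of all probe sets.

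**Figure D1:**
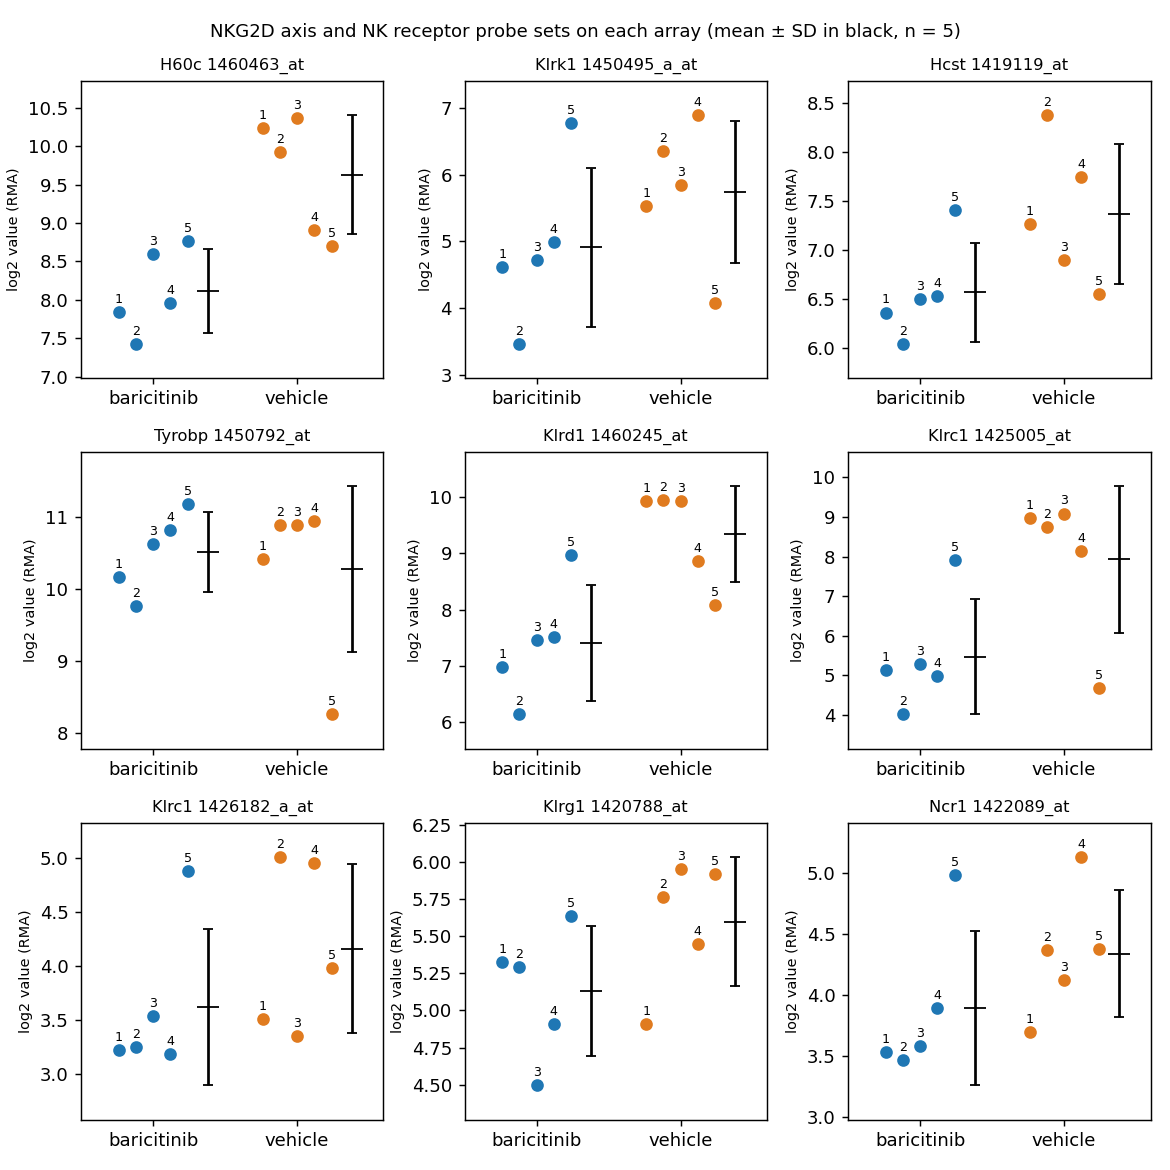
Log2 value of each probe set on each array (points, numbered by replicate) for baricitinib (blue) and vehicle (orange), with the group mean ± SD in black (n = 5). For Klrc1 1425005_at the baricitinib arrays 1 to 4 lay at 4.02 to 5.28 log2 and vehicle arrays 1 to 4 at 8.14 to 9.09.

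The ligand gene H60c had values of 7.84, 7.43, 8.59, 7.96 and 8.76 log2 in baricitinib replicates 1 to 5 and of 10.24, 9.93, 10.37, 8.91 and 8.70 in vehicle replicates 1 to 5. Vehicle replicates 1 to 3 thus lay above all other arrays, while vehicle replicates 4 and 5 lay next to the highest baricitinib arrays. The means were 8.12 ± 0.55 and 9.63 ± 0.77 (SD, n = 5), 2.85-fold lower in baricitinib treated skin (difference -1.51 ± 0.39, SE, limma adjusted p = 0.224). Without vehicle replicate 5 every baricitinib array lay below every vehicle array, and the difference was -1.74 ± 0.35 (SE, limma adjusted p = 0.0733). The margin was narrow, since vehicle replicate 4 exceeded baricitinib replicate 5 by the step from 8.76 to 8.91. One other NKG2D ligand gene of the 8 listed could be named, Ulbp1, which encodes MULT1. It was at 3.88 to 4.12 on the baricitinib arrays and at 3.72 to 4.24 on vehicle replicates 1 to 4, near the first quartile of the 9 arrays other than vehicle replicate 5 (4.02 to 4.14), with 5.70 on vehicle replicate 5 (difference -0.35, and -0.01 without that array).

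The receptor gene Klrk1 gave 4.62, 3.47, 4.72, 4.99 and 6.77 log2 in baricitinib replicates 1 to 5 and 5.53, 6.36, 5.84, 6.89 and 4.07 in vehicle replicates 1 to 5. Baricitinib replicates 1 to 4 lay below vehicle replicates 1 to 4, and replicate 5 of each group lay among the arrays of the other. The means were 4.91 ± 1.19 and 5.74 ± 1.06 (SD, n = 5), and the difference was -0.83 ± 0.64 (SE, limma adjusted p = 0.488). Leaving out vehicle replicate 5 gave -1.24 ± 0.57, and leaving out baricitinib replicate 5 instead gave -1.29 ± 0.55 (SE, limma adjusted p = 0.186 and 0.399). The difference was nearer to 0 when other arrays were dropped, at -0.47 without baricitinib replicate 2 and -0.54 without vehicle replicate 4. It thus depended on which of these 4 arrays were kept.

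The adaptor gene Hcst, through which NKG2D signals, followed a similar order. It was at 6.37, 6.05, 6.50, 6.53 and 7.40 log2 in baricitinib replicates 1 to 5 and at 7.27, 8.37, 6.90, 7.74 and 6.56 in vehicle replicates 1 to 5. Baricitinib replicates 1 to 4 were below every vehicle array, vehicle replicate 5 included, and baricitinib replicate 5 was above 3 of the 5. The difference was -0.80 ± 0.36 with all arrays and -1.0 ± 0.33 without vehicle replicate 5 (SE, limma adjusted p = 0.343 and 0.109).

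Tyrobp, the adaptor gene shared with myeloid receptors, did not separate the groups in the same way. Its values were 10.16, 9.76, 10.62, 10.81 and 11.17 log2 in baricitinib replicates 1 to 5 and 10.41, 10.89, 10.88, 10.93 and 8.25 in vehicle replicates 1 to 5. Baricitinib replicate 5 was the highest array of all and vehicle replicate 5 the lowest, and the others lay within 9.76 to 10.93. The difference was 0.23 ± 0.52 with all arrays and -0.27 ± 0.27 without vehicle replicate 5 (SE, limma adjusted p = 0.793 and 0.517), so that the sign turned without 1 array. Myeloid marker genes were likewise mixed. Of 11 measured, 7 were lower and 4 higher in baricitinib treated skin, with a median of -0.21 (9 and 2, and -0.45, without vehicle replicate 5) and 0 past the adjusted threshold in either fit. The lysosomal gene Cd68 differed by 0.85 and the lysozyme gene Lyz2 by 0.93, but by 0.22 and 0.39 without vehicle replicate 5. The macrophage growth factor receptor gene Csf1r differed by -0.73 (-0.74 without that array), and its dimmer probe sets by -0.79 and, for the dimmest, 0.54. The mean of the 11 genes was 7.91 to 8.39 on baricitinib replicates 1 to 4, 9.01 on baricitinib replicate 5, 8.40 to 9.15 on vehicle replicates 1 to 4 and 6.97 on vehicle replicate 5. Tyrobp thus lay high or low on the same arrays as the myeloid genes, and their part in its values was not tested.

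**Figure D2:**
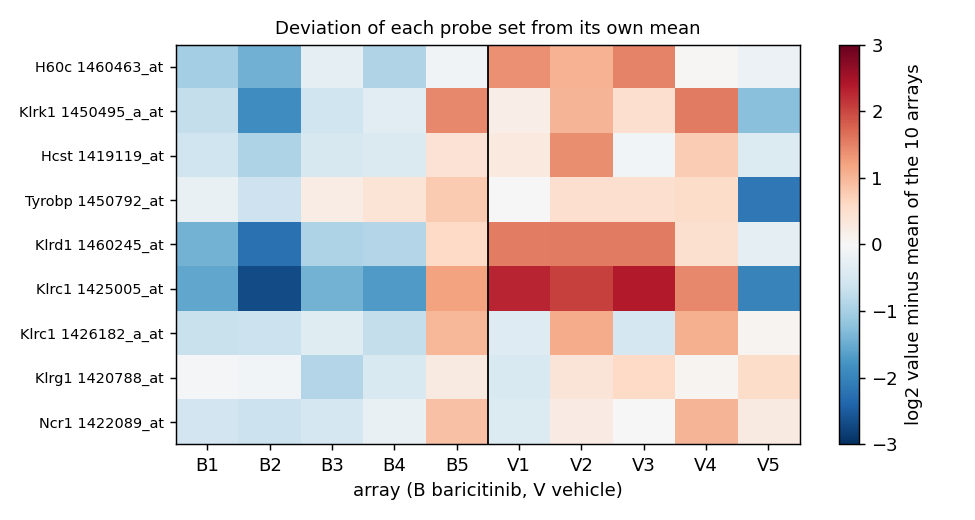
Log2 value minus the probe set's own mean over the 10 arrays, for each probe set (rows) on each baricitinib (B) and vehicle (V) array. Klrc1 1425005_at gave the darkest blue on B1 to B4 and the darkest red on V1 to V3, and Tyrobp was low on V5 (8.25).

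Klrd1 and Klrc1 encode the inhibitory CD94/NKG2A receptor, and Klrd1 and the brighter Klrc1 probe set had the largest differences of the 9. Klrd1 was at 6.97, 6.13, 7.46, 7.51 and 8.97 log2 in baricitinib replicates 1 to 5 and at 9.92, 9.95, 9.92, 8.86 and 8.07 in vehicle replicates 1 to 5. Vehicle replicates 1 to 3 lay above all other arrays, and baricitinib replicate 5 lay just above vehicle replicate 4. The means of 7.41 ± 1.03 and 9.35 ± 0.85 (SD, n = 5) differed 3.83-fold (difference -1.94 ± 0.54, SE, limma adjusted p = 0.229), and the difference was -2.25 ± 0.50 without vehicle replicate 5 (SE, limma adjusted p = 0.0737).

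The 2 Klrc1 probe sets gave the same sign but unlike sizes. The brighter, 1425005_at, was at 5.14, 4.02, 5.28, 5.0 and 7.91 log2 in baricitinib replicates 1 to 5 and at 8.97, 8.75, 9.09, 8.14 and 4.69 in vehicle replicates 1 to 5. Its groups overlapped through vehicle replicate 5 alone, which lay among baricitinib replicates 1 to 4. The difference was -2.46 ± 0.94 with all arrays, or 5.49-fold, and -3.27 ± 0.65 without vehicle replicate 5 (SE, limma adjusted p = 0.288 and 0.0733). The dimmer probe set, 1426182_a_at, was at 3.18 to 3.54 in baricitinib replicates 1 to 4 and at 4.89 in replicate 5, against 3.51, 5.01, 3.35, 4.95 and 3.98 in vehicle replicates 1 to 5 (difference -0.55 ± 0.44, SE, limma adjusted p = 0.496). Dropping 1 array moved this difference to -0.33 (vehicle replicate 2), -0.35 (vehicle replicate 4) or -0.86 (baricitinib replicate 5). Vehicle replicates 1 and 3, which were high by the brighter probe set, were at baricitinib level by the dimmer one, so the 2 probe sets placed these arrays differently. Klrc1, Klrc2 and Klrc3 are close paralogs, and whether a probe set also reads a paralog was not tested.

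The remaining receptor genes had small differences on dim probe sets. Klrg1 was at 5.32, 5.29, 4.50, 4.91 and 5.63 log2 in baricitinib replicates 1 to 5 and at 4.91, 5.76, 5.95, 5.45 and 5.92 in vehicle replicates 1 to 5 (difference -0.47 ± 0.27, SE, limma adjusted p = 0.407). The groups overlapped over most of their range, and the difference was -0.31 without baricitinib replicate 3. Ncr1 was at 3.53, 3.46, 3.58, 3.89 and 4.98 in baricitinib replicates 1 to 5 and at 3.69, 4.37, 4.12, 5.13 and 4.37 in vehicle replicates 1 to 5 (difference -0.45 ± 0.34, SE, limma adjusted p = 0.485). Values of 3.46 to 3.89 lay below the first quartile of the arrays, where a change in transcript level is hard to see on this scale. Vehicle replicate 4 and baricitinib replicate 5 stood above the other arrays for Ncr1, and its difference was -0.25 without the former and -0.72 without the latter.

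**Figure D3:**
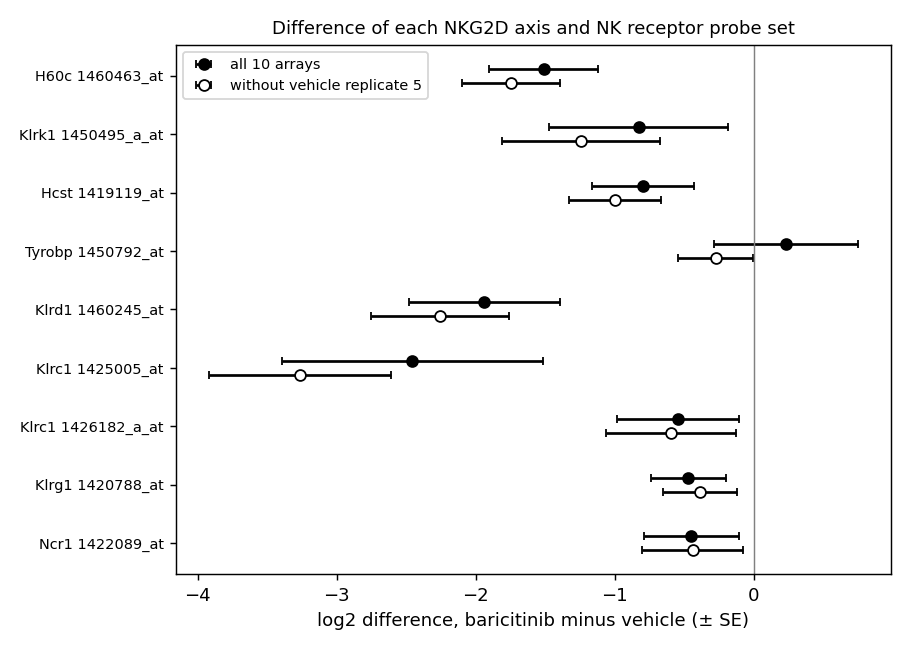
Log2 difference, baricitinib minus vehicle, of each probe set with its SE, filled for all 10 arrays and open for the 9 arrays other than vehicle replicate 5. Tyrobp moved from 0.23 to -0.27, and Klrc1 1425005_at from -2.46 to -3.27.

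Single arrays stood out across the genes. Baricitinib replicate 5 was the highest array of its group at all 9 probe sets, against 18% of all probe sets, and baricitinib replicate 2 was the lowest at 7 of the 9, against 24.4%. Without vehicle replicate 4, 0 of the 9 were past the adjusted threshold, against 0.568% of all probe sets called and lower in baricitinib treated skin. Array weights ran from 0.0289 for vehicle replicate 5 to 5.43 for baricitinib replicate 1. They were 1.22, 2.05, 1.09 and 0.497 for vehicle replicates 1 to 4. Vehicle replicate 4, whose 3'/5' gap of 1.01 matched the baricitinib arrays, thus counted less than vehicle replicates 1 to 3. With these weights 4 of the 9 passed and were lower in baricitinib treated skin, against 10.6% of all probe sets. These were H60c (difference -1.96 ± 0.29), Klrd1 (-2.53 ± 0.45), the brighter Klrc1 probe set (-3.41 ± 0.61) and Hcst (-1.18 ± 0.32), with limma adjusted p of 0.00867, 0.00943, 0.00949 and 0.0262 (SE).

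The vehicle arrays differed among themselves in a way that set the genes apart from each other. Among vehicle replicates 1 to 4, replicate 4, with the narrowest 3'/5' gap, was the lowest for H60c, Klrd1 and the brighter Klrc1 probe set, and the highest for Klrk1 and Ncr1. For Hcst and the dimmer Klrc1 probe set, vehicle replicates 2 and 4, with the narrower gaps, lay above vehicle replicates 1 and 3. Vehicle replicate 4 is the vehicle array whose gap matched the baricitinib arrays, and it exceeded all 5 of them at 6 of the 9 probe sets, against 19.1% of all probe sets. Vehicle replicate 2 did so at 6 as well (24.6% of all probe sets), vehicle replicate 3 at 4 (35.7%), vehicle replicate 1 at 3 (34.2%) and vehicle replicate 5 at 1 (42%), so the count of 6 was not particular to the array with the matching gap. For vehicle replicate 4 the 3 exceptions were Tyrobp, Klrd1 and Klrg1, where baricitinib replicate 5 was higher. With the gap as a covariate the differences were -1.93 ± 0.83 for Klrk1, -1.57 ± 0.42 for Hcst, -1.42 ± 0.53 for the dimmer Klrc1 probe set and -0.90 ± 0.48 for Ncr1, each farther from 0 than without it (SE, limma adjusted p = 1.0). It was nearer to 0 for H60c (-1.26 ± 0.58) and Klrg1 (-0.24 ± 0.39), and it was -2.02 for Klrd1, -3.21 for the brighter Klrc1 probe set and -0.55 for Tyrobp. Without vehicle replicate 5, the covariate moved H60c from -1.74 to -1.14 and Klrd1 from -2.25 to -1.88. The brighter Klrc1 probe set moved from -3.27 to -2.89 and Klrg1 from -0.39 to -0.26, all toward 0. The others moved away from 0, to -1.82 for Klrk1, -1.53 for Hcst, -1.47 for the dimmer Klrc1 probe set, -0.93 for Ncr1 and -0.37 for Tyrobp. Both fits with the gap rest almost wholly on the vehicle arrays, since the gap hardly varied among the baricitinib arrays. The part of RNA quality in these values was not tested.

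**Figure D4:**
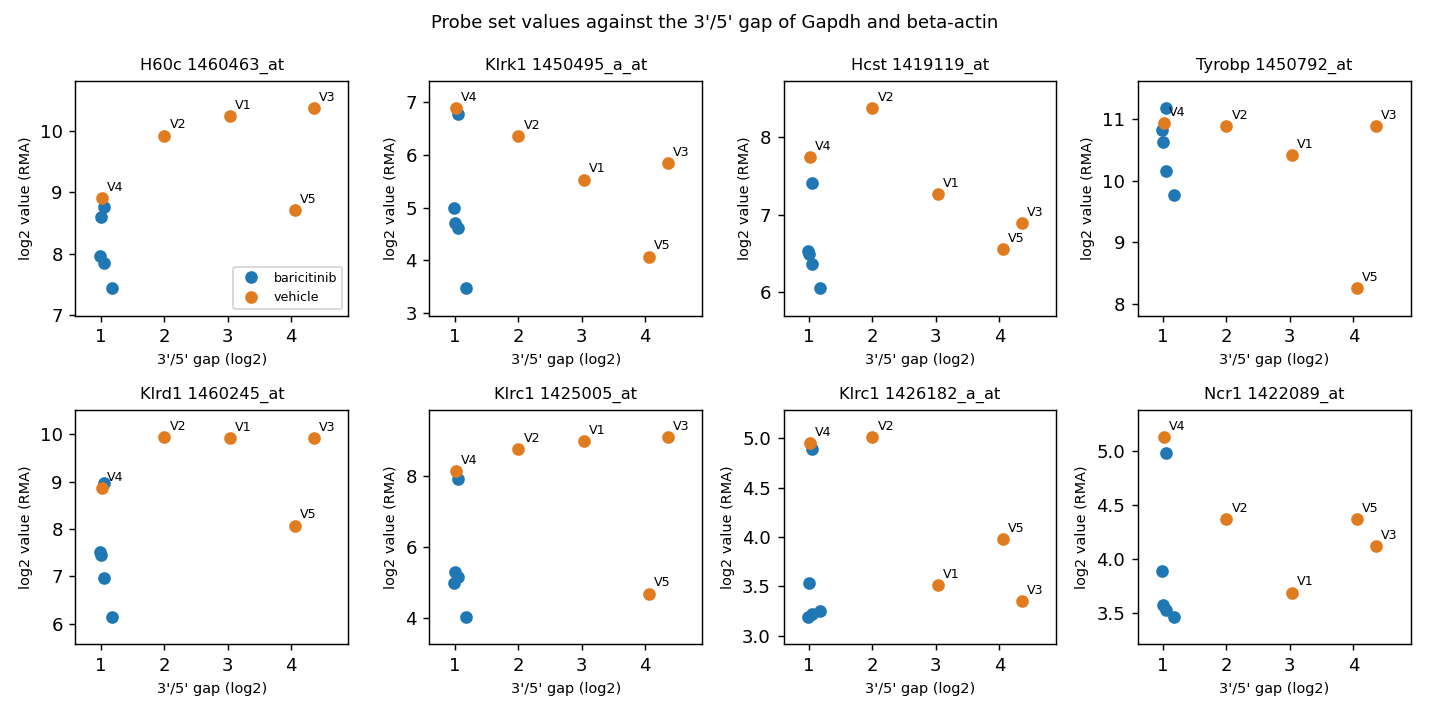
Log2 value of 8 probe sets against the 3'/5' gap of each array (log2), for baricitinib (blue) and vehicle (orange, labelled V1 to V5). V4, with a gap of 1.01, was at 8.91 for H60c, below V1 to V3, and at 6.89 for Klrk1, above V1 to V3.

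Other genes around NKG2D are described by their brightest probe set, and 0 genes of any list passed the adjusted threshold with all arrays or without vehicle replicate 5. With array weights, 7 of 17 other NK cell receptor genes, 8 of 11 cytotoxic effector genes and 7 of 10 T cell markers passed and were lower (10.6% of all probe sets), and 4 of 6 mast cell markers passed and were higher (10.9% of all probe sets). Of 89 genes in the lists 38 had several probe sets, and in 10 of these a dimmer probe set had the opposite sign with all arrays. Of 24 other NK cell receptor genes 17 were measured, and all 17 were lower in baricitinib treated skin (median -0.82, and -0.49 without vehicle replicate 5, again 17). A difference under 0 was seen for 55.4% of all probe sets. At an unadjusted p under 0.05 the lower genes numbered 3 with all arrays and 7 without vehicle replicate 5, against 5.62% and 13.5% of all probe sets. Some of the 17 were very dim. Klra1, Klra8 and Klrc3 lay at 2.05 to 2.91 log2, with differences of -0.11, -0.23 and -0.23. Slamf7, an activating receptor of the SLAM family, was at 5.99 to 7.14 log2 on the baricitinib arrays and at 8.11, 7.96, 8.15, 7.34 and 6.94 on vehicle replicates 1 to 5 (difference -1.22). Cd226, encoding the activating receptor DNAM-1, differed by -1.44 (-0.71 without vehicle replicate 5, where it was at 6.93 against 2.97 to 3.54 on the other vehicle arrays), and Klrb1f by -1.15 (-0.35). For these 2 genes vehicle replicate 5 was the highest array, unlike for Klrk1.

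The genes below the receptors were divided. Of 12 measured signalling genes 7 were lower and 5 higher (median -0.10, and -0.40 without vehicle replicate 5). Zap70, the T cell receptor kinase gene, differed by -1.48, and it was at 6.42 to 7.90 on the baricitinib arrays and at 9.21, 9.18, 9.54, 7.82 and 6.93 on vehicle replicates 1 to 5. As for H60c, vehicle replicates 1 to 3 lay apart from the others. Pik3r1, which encodes the PI3-kinase subunit recruited by DAP10, differed by 1.34 and was at 10.68 to 11.72 on the baricitinib arrays. Vehicle replicates 1 to 4 were at 9.81 to 10.29 and vehicle replicate 5 at 8.99. The groups thus did not overlap, and the share of all probe sets without overlap in this direction was not counted. The dimmer Pik3r1 probe sets differed by 0.63, 1.49 and 1.27, and the groups overlapped at the first and last of these. Pik3r1 is expressed by many cell types. Ptpn6, encoding the phosphatase SHP-1 that inhibitory receptors recruit, differed by 1.06, and by 0.18 without vehicle replicate 5.

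Of the ligands of the inhibitory receptors 4 genes were measured, with a median of 0.03, and 0.31 without vehicle replicate 5. B2m, the light chain of MHC class I, differed by -0.22 and by -0.29 without that array. The cadherin genes Cdh1, Cdh2 and Cdh4 differed by 0.03, 0.03 and 0.57, and by -0.09, 0.70 and 0.80 without it, so that Cdh1 turned its sign and the value of Cdh2 rested on 1 array. Of the IL-15 pathway, a cytokine system that sustains NK cells and CD8 T cells, Il2rb differed by -0.62 and Il15 and Il15ra by 0.11 each (-0.98, -0.31 and -0.22 without vehicle replicate 5). Of 11 cytotoxic effector genes 10 were lower (median -1.10, and -1.90 without vehicle replicate 5), with differences of -4.19 for Gzma, -3.92 for Gzmb and -2.92 for Ccl5. The exception was Prf1, the perforin gene, named after its values were seen, whose probe sets went opposite ways. Its brighter probe set was at 7.51 to 7.92 log2 on the baricitinib arrays and at 6.33, 7.11, 5.97, 7.80 and 6.39 in vehicle replicates 1 to 5 (difference 1.05, limma adjusted p = 0.237). The difference was 0.97 without vehicle replicate 5 and 1.07 with array weights (limma adjusted p = 0.109 and 0.014). Its dimmer probe set differed by -0.25 (limma adjusted p = 0.527), so the array gave no single direction for Prf1. Gzma, a granzyme gene, was at 3.21, 3.36, 3.54, 6.42 and 10.92 log2 in baricitinib replicates 1 to 5, and at 11.19, 11.74, 11.12, 11.23 and 3.10 in vehicle replicates 1 to 5. As for the brighter Klrc1 probe set, replicate 5 of each group lay with the other group.

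Marker genes of the cells that carry these receptors lay high and low on the same arrays. The mean of 10 T cell marker genes was 6.33 to 6.97 log2 on baricitinib replicates 1 to 4, 8.07 on baricitinib replicate 5, 8.10 to 8.57 on vehicle replicates 1 to 4 and 6.36 on vehicle replicate 5. Of the 10, 9 were lower in baricitinib treated skin (median -0.67), led by Cd8a (-3.80), Cd5 (-1.22) and Cd8b1 (-0.99). A difference under 0 was seen for 55.4% of all probe sets. The exception was Cd3g (0.31, and -0.41 without vehicle replicate 5), and Cd3e (-0.54), Thy1 (-0.42) and Cd4 (-0.36) differed less. Cd8a alone ran from 4.22 to 11.03 log2 over the arrays and so weighed on the mean. The mean of 4 measured NK cell markers was 4.38 to 4.71, 6.0, 5.30 to 5.87 and 4.59 on the same 4 sets of arrays, with 4 of 4 lower (median -0.75). Tbx21 and Eomes, transcription factor genes of cytotoxic lymphocytes, differed by -0.98 and -0.67, and Klre1 by -0.84 (-1.54, -0.87 and -0.94 without vehicle replicate 5). The remaining marker, Itga2, differed by -0.24 with and without that array. Klre1 is also counted among the 17 other NK cell receptor genes, so the 2 lists are not separate. Of 8 gamma delta T cell markers 3 could be measured (Sox13 0.55, Blk -0.43, Cd163l1 -0.14, and 0.16, -0.76 and -0.0023 without vehicle replicate 5), none of them a gamma delta T cell receptor gene. Of 6 mast cell markers 6 had higher means in baricitinib treated skin (median 1.42). The part of these cell types in the values of Klrk1, Hcst, Klrd1 and Klrc1 was not tested.

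The genes whose profiles lay closest to H60c and Klrk1 were found by the mean absolute difference between profiles centred on their own mean over the 10 arrays. Candidates had a range of at least 1 log2 and at least 0.8 of the range of the reference. For H60c, among 10853 probe sets, the closest were Gm20559 (0.17 log2), Kctd4 (0.22), Ly86 (0.24), which encodes the myeloid and B cell surface protein MD-1, the lymphocyte GTPase gene Gimap8 (0.24), and Ifih1 (0.24), which encodes the viral RNA sensor MDA5. Their differences between groups were -1.22 to -1.68. On these genes too, vehicle replicates 1 to 3 lay above the other arrays. They were picked for a profile like that of H60c, so this order and their differences follow from the choice. For Klrk1, among 7995 probe sets, the closest were the interferon-induced genes Xaf1 (0.17) and Irf1 (0.18), then Herc6 (0.18), Samhd1 (0.20) and Flt1 (0.20), with differences of -0.69 to -1.13. They shared with Klrk1 the high values on baricitinib replicate 5 and vehicle replicate 4, which likewise follows from how they were picked. None of the 10 genes passed the threshold with all arrays (limma adjusted p 0.221 to 0.539).

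**Figure D5:**
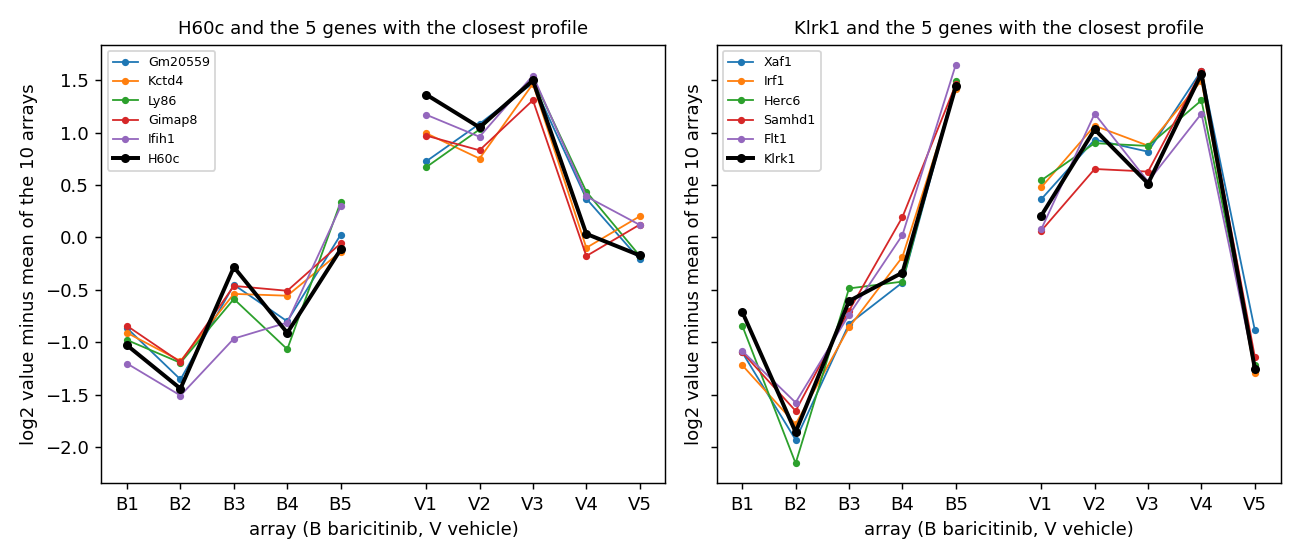
Log2 value minus the gene's own mean over the 10 arrays, for H60c (left, black) and Klrk1 (right, black) and the 5 genes with the closest profile to each (colours), on baricitinib (B) and vehicle (V) arrays. H60c and its nearest genes were highest on V1 to V3, and Klrk1 and its nearest genes on B5 and V4. The genes were picked for this likeness.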

How the data were processed

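Skin RNA of 10 mice was amplified (NuGen) and read on Affymetrix whole-genome mouse arrays, 1 per sample. The deposited values are log2 expression values per probe set that the authors made with RMA over the arrays of this experiment; no RMA version was stated. RMA hides array-wide loss of signal, and the number of arrays limits the precision.

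Groups and replicate numbers came from sample titles. Of 45101 probe sets 64 controls were set aside and 45037 tested without filter. In the platform annotation 34945 had 1 gene symbol, 932 several and 9160 none. limma 3.58.1 in R 4.3.3 (lmFit, eBayes, two-sided, Benjamini-Hochberg over all tested probe sets, threshold 0.05) compared baricitinib with vehicle, and the calculation was tested on simulated data. No 2 arrays held identical values. Per the study's methods each sample came from its own mouse.

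The members and lists were chosen with earlier results of these data known. Named were all member probe sets, genes of each list past the threshold or else up to 3 with the largest difference, and 5 genes closest in profile to H60c and to Klrk1. Alternatives were dim-probe filtering, 3 scalings, array weights, a replicate block, RNA quality as covariate, another variance prior and each array left out. Start regions came from RefSeq (GRCm38.p6), where 5 of the 8 genes matched.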

Additional observations from a re-analysis of the deposited data

Results flagged for a closer look

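In 18 tests for a far-off sample (9 probe sets in 2 groups of 5), 4 found one by Dixon's criterion, which chance meets at a rate of about 0.05 per group. Vehicle replicate 5 lay far below its group for Tyrobp (8.25 log2 against 10.41 to 10.93) and for Klrc1 by the brighter probe set (4.69 against 8.14 to 9.09). Baricitinib replicate 5 lay far above its group for Klrc1 by the dimmer probe set (4.89 against 3.18 to 3.54) and for Ncr1 (4.98 against 3.46 to 3.89). The reason was not tested.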

How the results depend on the processing

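Over 19 alternatives (18 for Ncr1 and the dimmer Klrc1 probe set, which a minimum mean of 5 log2 removed) all differences kept their sign except that of Tyrobp, which was -0.0015 with cyclic loess, -0.36 with array weights, -0.55 with the 3'/5' gap as a covariate and -0.37 with the gap on 9 arrays, and ran from -0.27 to 0.42 when single arrays were left out; the causes were not tested. Array weights gave 9676 calls among all probe sets and 4 among the 9, where the unweighted fit gave 0 and 0 (limma, 6680 and 3 at an unadjusted p under 0.05). Leaving out single arrays gave 0 to 848 calls, with 848 when vehicle replicate 4 and 12 when baricitinib replicate 5 was dropped, and 0 of the 9 in each case. The median of the 9 stayed between -1.47 and -0.51. Without vehicle replicate 5 the medians of the IL-15 genes (0.11) and of the keratinocyte and dermal markers (0.17) became -0.31 and -0.075. With the replicate number as a block 0 probe sets and 0 of the 9 passed and the median was -0.80. Same-numbered arrays deviated with r of -0.23 to 0.09, which gave no sign of pairing. These r values cannot exclude pairing, since vehicle replicate 5 stood apart and the 3'/5' gap varied among the vehicle arrays. Low values of Ncr1, Ulbp1 and the dimmer Klrc1 probe set limit what can be seen. Klrk1 too lay below the array's first quartile on baricitinib replicate 2 (3.47 against 4.06) and vehicle replicate 5 (4.07 against 4.77).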

Other observations

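Mast cell transcripts had higher means in baricitinib treated skin. Mcpt4, encoding a chymase of connective tissue mast cells, was at 9.66, 9.20, 10.34, 10.35 and 8.84 log2 in baricitinib replicates 1 to 5 and at 7.20, 7.69, 7.37, 8.05 and 4.77 in vehicle replicates 1 to 5 (difference 2.66, limma adjusted p = 0.221). The 2 groups did not overlap, and the share of all probe sets without overlap in this direction was not counted. The tryptase gene Tpsb2 differed by 2.37 and the chymase gene Cma1 by 1.62, neither of them past the threshold. A dimmer Tpsb2 probe set differed by -0.04. The mean of 6 mast cell genes was 8.40 to 9.62 on the baricitinib arrays and 6.58 to 7.91 on the vehicle arrays, and unlike the lymphocyte genes baricitinib replicate 5 was the lowest of its group.

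Klrc2, the paralog of Klrc1 that encodes an activating partner of CD94, was singled out after its values were seen. It was at 2.29 to 2.59 log2 on the baricitinib arrays, 2.74 to 3.25 on vehicle replicates 1 to 4 and 4.29 on vehicle replicate 5. The groups did not overlap, as for 2.03% of all probe sets. The difference was -0.88 (limma adjusted p = 0.234), and -0.64 without vehicle replicate 5. These values lie in the lowest part of the arrays' range.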
